A study of Mus musculus with 12 samples.

Results

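Lysosomal genes were followed in the tibialis anterior of mice, a shin muscle made mostly of fast fibres, after injection of a matrix gel. The group comprised 51 genes out of 26264 counted per library. They were listed by symbol, for subunits of the lysosomal proton pump, membrane proteins, hydrolases with their cofactors, and transcription factors that regulate lysosomal genes, and cathepsins were left out. All 51 had a row in every library and all 51 passed the filter on low counts, which left 13499 genes for testing. By role they were 15 pump genes, 6 membrane proteins, 12 glycosidases, 4 sulfatases, 6 lipid hydrolases and luminal cofactors, 5 proteases, thioesterase and phosphatases, and 3 regulators.

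RNA sequencing of tibialis anterior was available as 12 libraries. Of these, 4 came from muscle given 50 µl of matrix gel at 6 mg per ml, a hydrogel made from extracellular matrix, in the left leg. A further 4 came from muscle given 50 µl of phosphate-buffered saline (PBS), the vehicle, in the right leg, and 4 came from uninjured muscle. The labels' protocol assigns the gel and PBS to the left and right leg, so treatment and body side cannot be told apart. The deposited names pair each gel library with a PBS library as legs of 1 animal, and the uninjured libraries carry other animal numbers. The sources used here do not give the strain, sex and age of the mice, what the injury was, or how long after injection the muscle was taken.

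The lysosome is an acidic compartment in which proteins, glycans and lipids are broken down. Its acidity is made by the vacuolar proton pump, in which a V1 sector outside the membrane hydrolyses ATP and a V0 sector within the membrane passes protons. Transcription factors of the MiT family, TFEB, TFE3 and MITF, bind a short palindromic DNA element around the core CACGTG that occurs near the start of many lysosomal genes. In muscle, lysosomes are best known from glycogen storage disease caused by loss of acid alpha-glucosidase, the product of Gaa. Macrophages, which take up cell debris, are rich in lysosomes.

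The promoter windows below are shown because they hold this element in genes whose RNA changed between gel and PBS muscle. RefSeq sequence of the GRCm38.p6 build, from 250 bases before to 50 bases after each gene's start, was matched for 44 of the 51 genes. Atp6v1b2, Atp6v1c1, Atp6v1g1, Atp6v1h, Npc1, Galns and Asah1 were not matched. Nested palindromes were searched, each of which reads the same on both strands, so that a match to a longer one is also a match to the shorter ones. The full CLEAR element, which is TCACGTGA with a G before and a C after it, was in 0 of the 44 windows, and in 0.37% of 27025 genes. TCACGTGA itself was in 5 of 44 (11.4%), against 1.12% of all genes, and these were Atp6v0d1, Atp6v0e, Atp6v1a, Mcoln1 and Gla. The core CACGTG was in 12 of 44 (27.3%), against 8.09% of all genes. Of those 12, 6 were called higher in gel than in PBS muscle, 2 were called lower and 4 were not called. Over all 51 genes, with or without a match, 45.1% were called higher and 7.84% lower. Whether a match goes with a call was not tested. The stretches around the matches follow, with the match in capitals. The Lamp1 stretch was added after its 4 core matches had been seen.
Atp6v1a, minus strand of chr16:44139322-44139441, from -182 to -63: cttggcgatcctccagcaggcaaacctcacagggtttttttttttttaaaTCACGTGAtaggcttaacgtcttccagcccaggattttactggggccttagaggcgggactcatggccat
Gla, minus strand of chrX:134601156-134601255, from -250 to -151: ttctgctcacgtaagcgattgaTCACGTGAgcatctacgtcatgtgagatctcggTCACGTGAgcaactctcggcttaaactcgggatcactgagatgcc
Atp6v0e, plus strand of chr17:26676386-26676415, from -10 to 20: ttagcgcgccgaTCACGTGAgcctctgttg
Lamp1, plus strand of chr8:13159081-13159160, from -80 to -1: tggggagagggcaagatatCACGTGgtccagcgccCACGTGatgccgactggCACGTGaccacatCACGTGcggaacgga
Gla holds 2 copies of TCACGTGA in its stretch, and Lamp1 holds 4 copies of the core just before its start. A match is a description of these letters and was not tested as a binding site.

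Library totals ran from 15626086 to 22182483 counts, and levels below are CPM, counts scaled to a shared library size by edgeR. One gel library, number 3, differed from the rest of its group. On the first principal component of all genes it lay at 5.39, while gel libraries 1, 2 and 4 lay between -91.4 and -67.4 and the 8 other libraries between 17.2 and 46.5. All 15 macrophage markers rose in gel against PBS muscle, and none was at 0 in every library of a group. Their summed level was 962, 1460, 92.9 and 1710 CPM in gel libraries 1 to 4, against 29.3 to 58.8 CPM in PBS libraries and 33.9 to 81 CPM in uninjured libraries. Of 12 fast muscle fibre markers 4 fell and 1 rose, with summed levels of 152000 to 227000 CPM in gel, 224000 to 260000 CPM in PBS and 250000 to 284000 CPM in uninjured libraries. Of 8 fibroblast markers 4 rose in gel against PBS muscle (Col1a1, Col1a2, Col3a1 and Dpt) and 0 fell, with summed levels of 3810, 3270, 663 and 4060 CPM in gel libraries 1 to 4, against 563 to 1370 CPM in PBS libraries and 691 to 1040 CPM in uninjured libraries. The 6 endothelial markers had log2 fold changes of -0.61 to 0.10 in gel over PBS, none past the threshold in edgeR. Of all genes tested, 16.6% rose and 13.2% fell in gel against PBS muscle. Of 6 neutrophil markers, S100a8, S100a9, Ly6g, Retnlg and Cxcr2 were at 1.14 CPM or lower in every library. The sixth, Csf3r, had 17.8, 21.8, 0.855 and 21.3 CPM in gel libraries, against 0.761 to 1.44 CPM in PBS libraries, and rose by 3.78 ± 0.74 on the log2 scale (edgeR adjusted p = 0.00461). In bulk tissue, fewer cells of a type and less RNA per cell cannot be told apart. The part of these shifts in cell markers in the results below was not tested.

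Gel against PBS muscle addresses what the gel adds to the vehicle. Genes of hydrolases and their cofactors rose in differing shares. Upward calls were made for 9 of 12 glycosidases, 1 of 4 sulfatases, 4 of 6 lipid hydrolases and luminal cofactors, and 4 of 5 proteases, thioesterase and phosphatases. Of the 15 pump genes 3 rose and 0 fell, and Lamp1, Gaa, Ids and Smpd1 were the 4 genes that fell. In all, 23 of the 51 genes rose (45.1%) and 4 fell (7.84%) in edgeR's quasi-likelihood test at an adjusted p under 0.05. Of all 13499 genes tested, 16.6% rose and 13.2% fell in the same comparison. The median log2 fold change was 0.41 over the 51 genes and 0.04 over all genes tested. In 8 of the 51 genes all gel libraries lay above all PBS libraries, and in 3 all lay below, while 10.4% and 9.74% of all genes did so.

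A fit of the gel and PBS libraries alone, without the uninjured ones, called 16 of the 51 genes higher and 3 lower, and 1513 and 1046 of all 13233 genes in it. With the animal added to that fit as a block, which uses the pairing of the legs, 12 of the 51 rose and 3 fell, while 1644 of all genes rose and 1327 fell. Gel library 3 was below the other gel libraries for 21 of the 23 genes that rose and within the PBS range for 14 of them. Over all 51 genes, called or not, it was below the other gel libraries for 30. The same was not counted over all genes tested, and on the first principal component of all genes this library also stood apart from its group. For all 4 genes that fell, gel library 3 was above the other gel libraries. Without gel library 3, 29 of the 51 rose and 7 fell, while 3171 of all genes rose and 2791 fell.

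**Figure D1:**
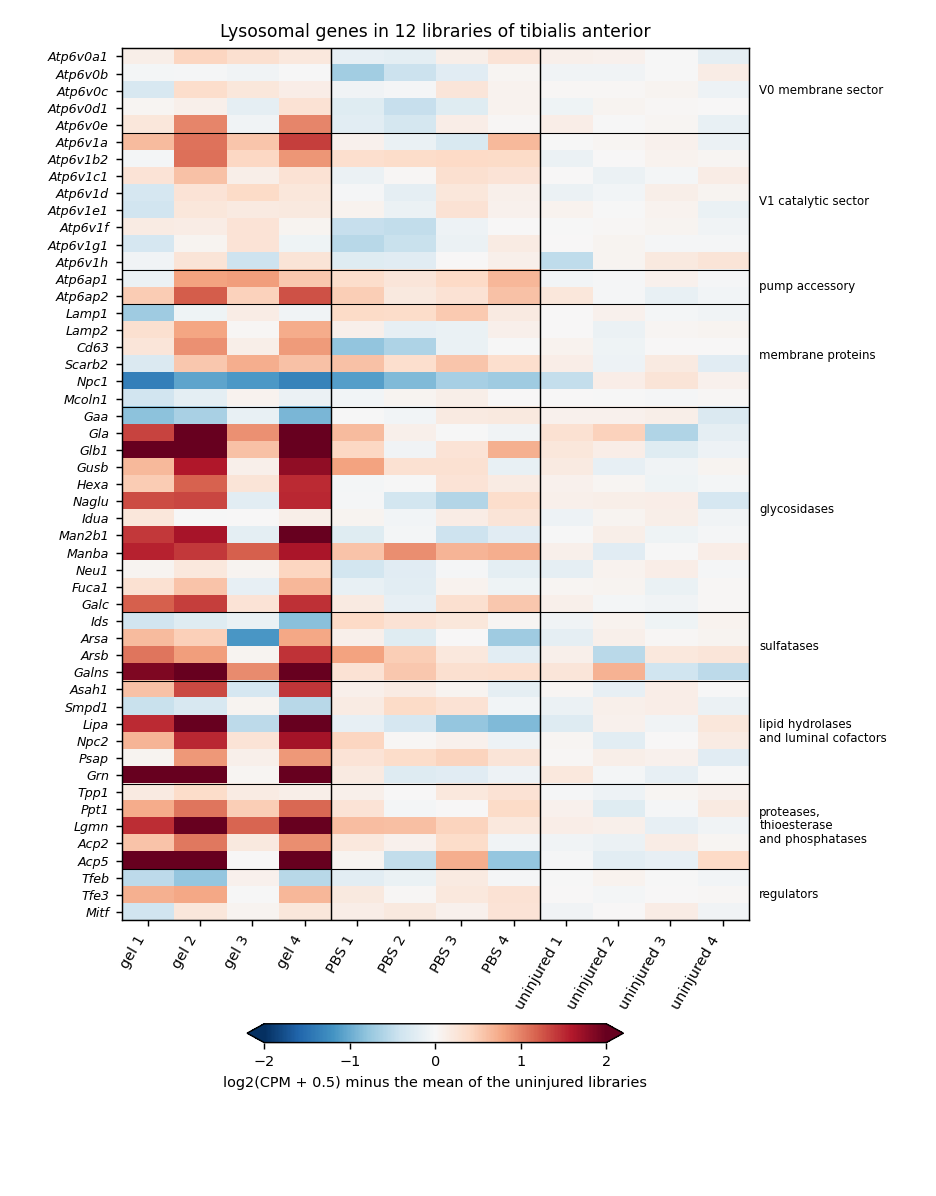
Level of each of the 51 genes (rows, ordered by role) in each of the 12 libraries (columns, gel left, then PBS, then uninjured), as log2(CPM + 0.5) minus the mean of the uninjured libraries, with colours capped at 2 in either direction. Red cells gather in the hydrolase rows of gel libraries 1, 2 and 4, and gel library 3 is paler in most of these rows.

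**Figure D2:**
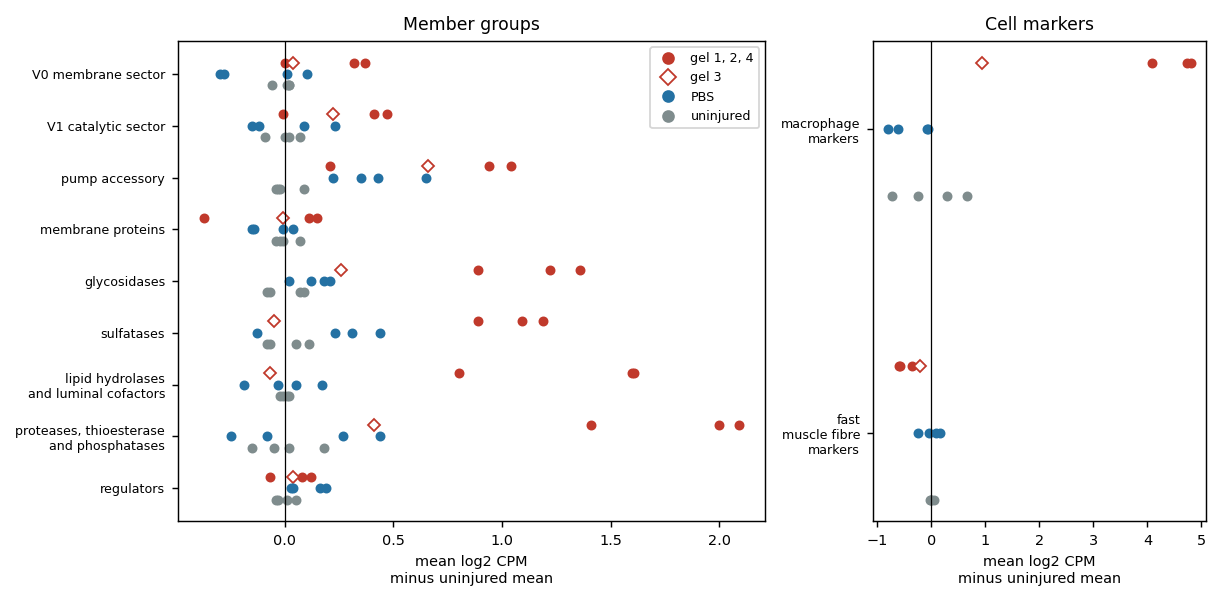
Mean log2 CPM of the genes of each role in each library, minus the mean of the uninjured libraries, beside the same for macrophage and fast muscle fibre markers. Gel library 3 (open diamond) has a macrophage marker level of 0.94, where gel libraries 1, 2 and 4 have 4.09 to 4.8 and PBS libraries -0.8 to -0.05.

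Among the pump genes, Atp6v1a, which encodes the catalytic A subunit of the V1 sector, had the strongest call. It stood at 16.7, 23, 15.8 and 28.5 CPM in gel libraries, against 11.3, 9.57, 8.53 and 16.9 CPM in PBS libraries. Uninjured libraries had 10.5, 10.9, 11.3 and 9.75 CPM. Every gel library was above every uninjured library, whereas the ranges of gel and PBS overlapped through PBS library 4. Gel exceeded PBS by a log2 fold change of 0.87 ± 0.22 (SE; edgeR adjusted p = 0.00852), and that over uninjured was 0.99 ± 0.22 (adjusted p = 0.00448).

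Atp6v0e, for the small e subunit of the V0 sector, had 20.4, 34.5, 16.5 and 34.5 CPM in gel libraries, against 14.9, 13.5, 19 and 17.6 CPM in PBS libraries. Uninjured libraries had 19, 17.2, 17.8 and 15.6 CPM, and gel library 3 lay within both other groups. It rose by 0.71 ± 0.21 on the log2 scale against PBS (edgeR adjusted p = 0.0204). It was not called in the fit of gel and PBS libraries alone, without the block (adjusted p = 0.0591) or with it (0.0765), nor when gel library 2 or 4, or PBS library 1 or 2, was omitted (adjusted p of 0.0541 to 0.0845). Atp6v1f, for the F subunit of the central rotor, had 103, 102, 111 and 95.4 CPM in gel libraries, against 66.6, 65.4, 85.5 and 92.4 CPM in PBS libraries. Here the gel libraries, the third included, lay above all PBS libraries, while the uninjured libraries at 87.5 to 95.6 CPM overlapped both. It rose by 0.41 ± 0.12 (edgeR adjusted p = 0.0224), but not in the fit of gel and PBS libraries alone, without the block (adjusted p = 0.0686) or with it (0.0661), or when gel library 2 or either of PBS libraries 1 and 2 was omitted (adjusted p of 0.0591 to 0.0855).

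The other 12 pump genes were not called between gel and PBS muscle. Their log2 fold changes ran from -0.01 for Atp6v1e1 to 0.55 for Atp6ap2, the prorenin receptor that assists pump assembly. Atp6ap2 had 7.74, 12.9, 7.45 and 13.4 CPM in gel libraries, against 7.6, 6.14, 6.53 and 8.16 CPM in PBS libraries (edgeR adjusted p = 0.0591). It passed the threshold without gel library 3, at 0.67 (adjusted p = 0.0121), or without gel library 1, at 0.66 (adjusted p = 0.0322). The proteolipid gene Atp6v0c has a counted pseudogene, Atp6v0c-ps2, so its reads may be split.

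The pump has alternative subunits whose use differs between tissues and which were listed apart from the 51. Of 10 listed alternative genes 5 had enough counts for testing. In gel against PBS muscle 3 of these rose (60%, against 16.6% of all genes tested). Atp6v0d2, among the 3, passed the filter on low counts only through its gel libraries, so this share is not read as a result. The d2 subunit gene Atp6v0d2, known from osteoclasts and macrophages, had 43.6, 57.6, 1.28 and 55.4 CPM in gel libraries, against 0.197, 0, 0.229 and 0.72 CPM in PBS libraries. Uninjured libraries were at 0 to 0.455 CPM, so that every gel library exceeded every library of the other groups, gel library 3 by the least. Gel over PBS gave a log2 fold change of 7.12 ± 1.17 (edgeR adjusted p = 0.003), and limma voom did not call it (adjusted p = 0.22). Its common counterpart Atp6v0d1 had 36.2, 38, 30.9 and 43 CPM in gel libraries, against 29.8, 25.5, 29.8 and 37.1 CPM in PBS libraries, and was not called (0.28 ± 0.13, adjusted p = 0.112).

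Tcirg1, for the a3 subunit that osteoclasts need to acidify bone, had 80.9, 131, 13.5 and 125 CPM in gel libraries. PBS libraries had 13.3, 7.94, 7.5 and 15.4 CPM and uninjured libraries 19.9, 10, 13.5 and 13.2 CPM. Gel libraries 1, 2 and 4 stood above both groups and gel library 3 lay within both. It rose by 2.99 ± 0.60 against PBS (edgeR adjusted p = 0.00558). Atp6v0a1, the a1 counterpart, had 170, 212, 196 and 182 CPM in gel libraries, against 140, 137, 171 and 190 CPM in PBS libraries (0.25 ± 0.13, adjusted p = 0.158).

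Scaled to transcript length, the d2 form made up 43.6%, 49.3%, 2.59% and 45.3% of d1 and d2 RNA together in gel libraries 1 to 4, and 0% to 1.23% in PBS and uninjured libraries. The a3 form made up 36%, 42.7%, 7.41% and 44.6% of a1, a2 and a3 together in gel libraries, 4.72% to 9.58% in PBS libraries and 6.47% to 12% in uninjured libraries. These shares are given without a test. Of 6 osteoclast markers, the cell in which d2 and a3 are best known, Calcr, Ocstamp, Dcstamp and Oscar were at 1.59 CPM or lower in every library. Nfatc1, a transcription factor also active outside osteoclasts, was at 39.9 to 73.9 CPM in the 12 libraries and fell in gel against PBS muscle (-0.36 ± 0.13, edgeR adjusted p = 0.0451). Ctsk, a protease of osteoclasts and macrophages, had 10.5, 14.9, 1.95 and 21.2 CPM in gel libraries, against 5.13, 0.924, 1.43 and 2.1 CPM in PBS libraries (2.33 ± 0.64, edgeR adjusted p = 0.0192).

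**Figure D3:**
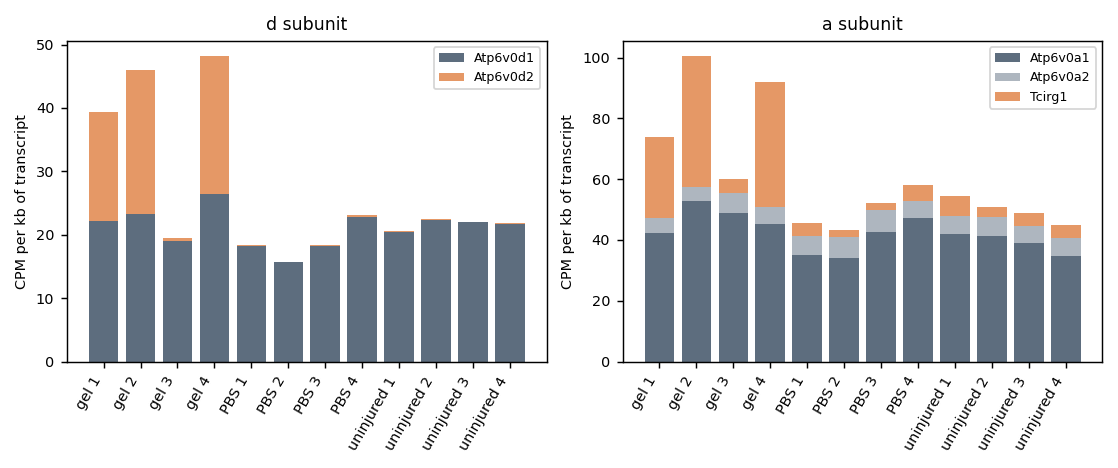
Stacked CPM per kb of transcript for the d subunit genes (left) and the a subunit genes (right) of the pump in each library, gel first. In gel libraries 1, 2 and 4 the d2 (Atp6v0d2) and a3 (Tcirg1) genes make up 36% to 49.3% of the stacked height.

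The membrane proteins moved in both directions, with 2 of 6 higher and 1 lower. Lamp1 and Lamp2 encode the heavily glycosylated proteins that line the lysosomal membrane. Lamp1, the second most abundant of the 51 genes per kb in every group, had 246, 381, 450 and 384 CPM in gel libraries, against 530, 524, 581 and 458 CPM in PBS libraries. Uninjured libraries had 409, 432, 395 and 385 CPM, so that all PBS libraries lay above all gel and all uninjured libraries. Gel over PBS gave a log2 fold change of -0.52 ± 0.16 (edgeR adjusted p = 0.0228). It was not called in the 2-group fit without the block (adjusted p = 0.0723) or with it (0.0536), nor when PBS library 3 was omitted (0.0643), and the gene was not called between gel and uninjured muscle (-0.15 ± 0.16, adjusted p = 0.511).

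Lamp2 had 76.3, 106, 61.8 and 102 CPM in gel libraries, against 65.6, 54.2, 55.4 and 65.4 CPM in PBS libraries. Uninjured libraries had 61.5, 56, 62.9 and 63.4 CPM, and gel library 3 lay within both groups. It rose by 0.52 ± 0.15 (edgeR adjusted p = 0.0187), in the direction opposite to Lamp1. The 2-group fit did not call it without the block (adjusted p = 0.0578) or with it (0.0536), nor was it called when gel library 2 or 4, or PBS library 2 or 3, was omitted (adjusted p of 0.0584 to 0.0823). Cd63, a tetraspanin of late endosomes, had 78, 124, 71.8 and 120 CPM in gel libraries, against 38, 42.8, 59.8 and 65.8 CPM in PBS libraries. All gel libraries lay above all PBS and all uninjured libraries (61.9 to 69.2 CPM), and it rose by 0.93 ± 0.20 (edgeR adjusted p = 0.00423).

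Among the glycosidases, 9 of 12 rose and 1 fell. Gaa, the glycogen-degrading acid alpha-glucosidase, was the one that fell: 164, 184, 260 and 153 CPM in gel libraries, against 288, 280, 328 and 331 CPM in PBS libraries. Uninjured libraries had 307, 309, 313 and 237 CPM. All gel libraries were below all PBS libraries, with gel library 3 the nearest to them. The log2 fold change was -0.69 ± 0.16 against PBS (edgeR adjusted p = 0.00617) and -0.62 ± 0.16 against uninjured (adjusted p = 0.0117).

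Glb1, the acid beta-galactosidase, showed the largest rise of this group. It had 6.32, 9.93, 1.83 and 12.7 CPM in gel libraries, against 1.58, 0.979, 1.37 and 2.04 CPM in PBS libraries and 1.31, 1.2, 0.811 and 0.95 CPM in uninjured libraries. Gel library 3 lay within the PBS range but above the uninjured one. It rose by 2.37 ± 0.45 against PBS (edgeR adjusted p = 0.00282). Gla, the alpha-galactosidase lost in Fabry disease, had 6.66, 12.3, 4.76 and 10.7 CPM in gel libraries, against 3.85, 2.5, 2.29 and 2.16 CPM in PBS libraries. Uninjured libraries had 2.96, 3.36, 1.35 and 1.96 CPM, and every gel library exceeded every other library. It rose by 1.67 ± 0.33 (edgeR adjusted p = 0.00324), and its promoter stretch with 2 TCACGTGA copies is shown above.

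Man2b1, the lysosomal alpha-mannosidase, had 48, 56.9, 15.4 and 72.6 CPM in gel libraries, against 14.9, 17.3, 13.2 and 15.2 CPM in PBS libraries and 16.7 to 19.3 CPM in uninjured libraries. Gel library 3 lay within the PBS range and below the uninjured one, and the gene rose by 1.67 ± 0.34 (edgeR adjusted p = 0.00483). The remaining glycosidase rises were smaller. Naglu, which removes N-acetylglucosamine from heparan sulfate, rose by 1.31 ± 0.33 (edgeR adjusted p = 0.00945), Galc, the galactosylceramidase, by 1.01 ± 0.27 (0.0122), and Hexa, the hexosaminidase alpha chain, by 0.85 ± 0.21 (0.0097). Neu1, the sialidase, rose by 0.40 ± 0.13 (0.0288) and Fuca1, the fucosidase, by 0.47 ± 0.15 (0.0299).

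Some of these glycosidase calls were not kept in other fits. The 2-group fit did not call Neu1 (adjusted p = 0.0641 without the block, 0.0778 with it) or Fuca1 (0.0755 without, 0.1 with it). Neu1 was also lost when gel library 2 or 4, or PBS library 1, 2 or 4, was omitted (adjusted p of 0.0704 to 0.147), and Fuca1 without the same libraries (0.067 to 0.136). Galc was lost without gel library 4 (adjusted p = 0.0517). Gusb, the beta-glucuronidase, had 11, 21.8, 7.39 and 24.6 CPM in gel libraries, against 12.3, 8.54, 8.59 and 6.12 CPM in PBS libraries, and was not called (0.87 ± 0.32, adjusted p = 0.0579), but passed without gel library 1 or 3 or PBS library 1 (adjusted p of 0.00232 to 0.0441). Idua, the iduronidase of heparan and dermatan sulfate breakdown, stayed within 17 to 21.9 CPM in all 12 libraries.

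The sulfatases were split, with 1 of 4 higher and 1 lower. Galns, which removes sulfate from keratan sulfate, had 6.44, 13.7, 3.17 and 14.3 CPM in gel libraries, against 1.83, 2.28, 1.89 and 1.92 CPM in PBS libraries. Uninjured libraries had 1.76, 2.58, 0.946 and 0.823 CPM, and every gel library was above every other library. It rose by 2.25 ± 0.44 (edgeR adjusted p = 0.00335). Ids, the iduronate sulfatase, had 21.2, 23.4, 25.3 and 15.4 CPM in gel libraries, against 36.7, 34, 32.7 and 28.6 CPM in PBS libraries and 26.5, 29.3, 26.2 and 29.1 CPM in uninjured libraries. The gel libraries were the lowest of all 12, and Ids fell by 0.63 ± 0.14 on the log2 scale (edgeR adjusted p = 0.00497).

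Arsa and Arsb, which act on sulfated lipids and on dermatan sulfate, were not called (adjusted p of 0.214 and 0.139). Gel library 3 had the lowest Arsa level of all 12 libraries, at 3.11 CPM, where gel libraries 1, 2 and 4 had 10.7 to 13.3 CPM and PBS libraries 4.44 to 8.14 CPM. Without it both genes passed, Arsa at 0.84 (adjusted p = 0.00186) and Arsb at 0.79 (adjusted p = 0.0155).

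Of the lipid hydrolases and luminal cofactors, 4 of 6 rose and 1 fell. Grn, for progranulin, a secreted and lysosomal glycoprotein, had 126, 202, 25.2 and 215 CPM in gel libraries. PBS libraries had 27.8, 20.4, 21 and 22.8 CPM and uninjured libraries 28.6, 23.9, 21.8 and 24.4 CPM. Gel library 3 lay within these ranges while the other gel libraries stood above them. Its log2 fold change was 2.63 ± 0.51 (edgeR adjusted p = 0.00486), it was not called in the blocked fit (adjusted p = 0.0668), and without gel library 3 it was 2.97 (adjusted p = 2.57e-09).

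Lipa, the acid lipase that frees cholesterol and fatty acids, followed the same pattern with 25.6, 83, 5.98 and 72.3 CPM in gel libraries, against 7.8, 6.85, 4.92 and 4.56 CPM in PBS libraries. Uninjured libraries had 7.28, 9.36, 8.38 and 10.4 CPM, so that gel library 3 lay below them. Lipa rose by 2.95 ± 0.65 (edgeR adjusted p = 0.00878), which was not called in the blocked fit (adjusted p = 0.101). Npc2, the luminal cholesterol carrier, had 38.5, 68.2, 28.7 and 76.6 CPM in gel libraries, against 32.3, 24.1, 25.1 and 22 CPM in PBS libraries and 24.3, 20.4, 23.9 and 26.8 CPM in uninjured libraries. All gel libraries exceeded the uninjured ones, and gel library 3 lay within the PBS range. It rose by 1.04 ± 0.26 (edgeR adjusted p = 0.0108; 0.0693 with the animal as a block).

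Smpd1, the acid sphingomyelinase, was the lipid hydrolase that fell. It had 55.6, 61, 79.1 and 51.7 CPM in gel libraries, against 85, 99.5, 93 and 73.2 CPM in PBS libraries, overlapping only through gel library 3. Its log2 fold change was -0.50 ± 0.14 (edgeR adjusted p = 0.016), and the call was lost without gel library 4 (adjusted p = 0.0541) or PBS library 2 (adjusted p = 0.053). Asah1, the acid ceramidase, rose by 0.90 ± 0.29 (adjusted p = 0.0339). It was not called in the 2-group fit without the block (0.0862) or with it (0.135), nor when gel library 2 or 4, or any one PBS library, was omitted (adjusted p of 0.062 to 0.12). Psap, the precursor of the saposins and the most abundant of the 51 genes per kb in every group, was not called (0.19 ± 0.18, adjusted p = 0.461).

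Of the proteases, thioesterase and phosphatases, 4 of 5 rose. Lgmn, the asparaginyl protease legumain, had 68.5, 168, 55 and 171 CPM in gel libraries, against 37.8, 37.4, 33.5 and 28.4 CPM in PBS libraries. Uninjured libraries had 26.7, 26.3, 21.8 and 23.1 CPM, and the 3 groups did not overlap. It rose by 1.76 ± 0.33 (edgeR adjusted p = 0.00346). Ppt1, the thioesterase that removes palmitate from proteins, had 24.4, 30.6, 20.3 and 32.4 CPM in gel libraries, against 17.5, 14, 14.4 and 18.8 CPM in PBS libraries and 15.2, 12.1, 14.2 and 16.3 CPM in uninjured libraries. All gel libraries, the third included, were the highest of the 12, and it rose by 0.74 ± 0.16 (edgeR adjusted p = 0.00451).

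Acp5, the tartrate-resistant acid phosphatase of osteoclasts and macrophages, had the largest fold change of the 51 genes in this comparison. It stood at 7.52, 11.8, 0.366 and 19.6 CPM in gel libraries, against 0.395, 0.109, 0.916 and 0 CPM in PBS libraries and 0.341, 0.24, 0.27 and 0.633 CPM in uninjured libraries. Gel library 3 was within the range of both other groups. Outside gel libraries 1, 2 and 4 the gene was at 0.916 CPM or lower. It thus passed the filter on low counts through those libraries, and the size of its change is uncertain. Acp5 rose by a log2 fold change of 4.77 ± 1.04 (edgeR adjusted p = 0.00723), but neither limma voom (adjusted p = 0.15) nor the blocked fit (adjusted p = 0.158) called it.

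Acp2, the lysosomal acid phosphatase, had 30, 42.2, 22.9 and 38.6 CPM in gel libraries, against 23.2, 21.2, 26.1 and 19 CPM in PBS libraries. It rose by 0.58 ± 0.17 (edgeR adjusted p = 0.0174), but not in the 2-group fit without the block (0.0509) or with it (0.0793), nor when gel library 2 or 4, or PBS library 2 or 4, was omitted (adjusted p of 0.0514 to 0.0758). Uninjured libraries had 19, 18.5, 22.2 and 20.6 CPM of Acp2. Against them Acp2 rose by 0.74 (edgeR adjusted p = 0.00566), a call kept under all 21 alternatives. Tpp1, a tripeptidyl peptidase, stayed within 117 to 161 CPM in all 12 libraries and was not called (0.05 ± 0.11, adjusted p = 0.763).

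**Figure D4:**
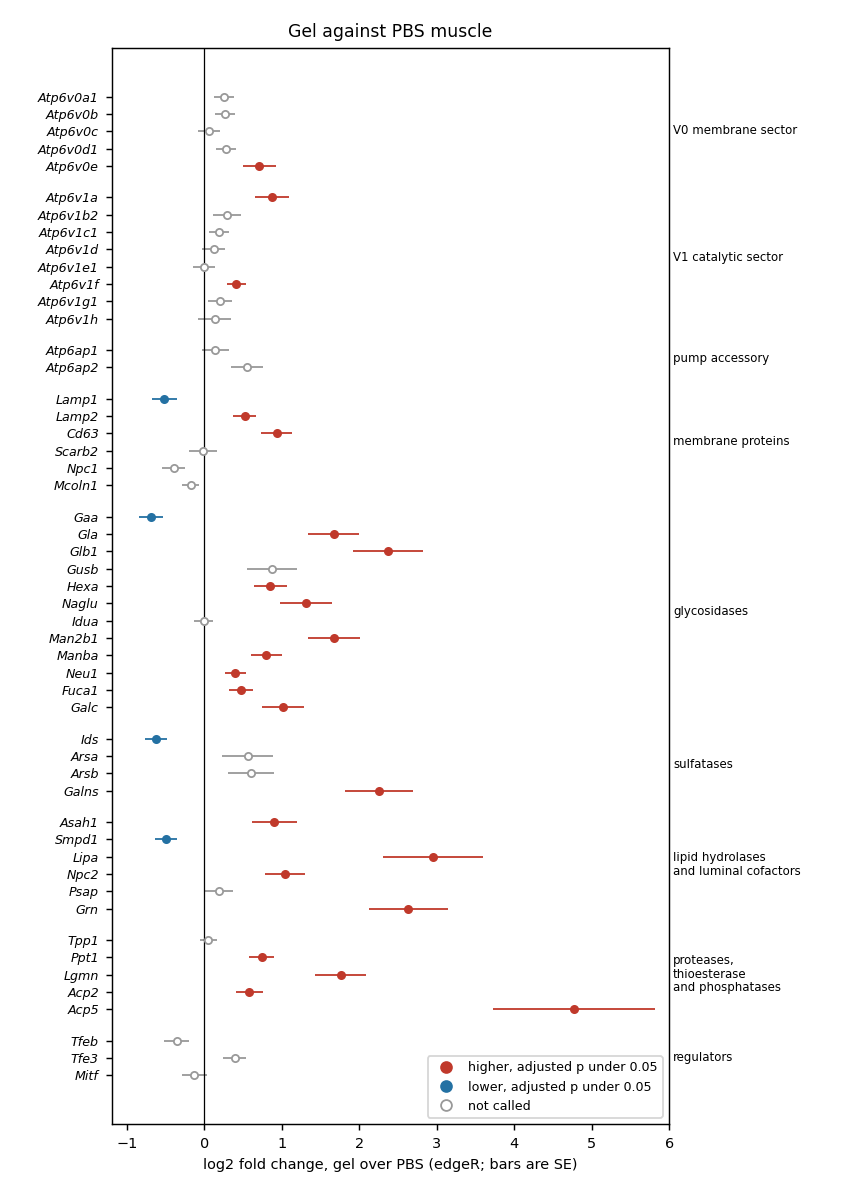
Log2 fold change of gel over PBS for each of the 51 genes (edgeR, bars are SE), grouped by role, with filled points for an adjusted p under 0.05. The 23 genes that rose are red, the 4 that fell (Lamp1, Gaa, Ids and Smpd1) are blue, and Acp5 lies farthest right at 4.77.

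None of the 3 regulators was called between gel and PBS muscle. Tfeb had 71.9, 60.2, 110 and 70 CPM in gel libraries, against 88.9, 94.1, 117 and 102 CPM in PBS libraries and 103, 108, 103 and 98.8 CPM in uninjured libraries. Gel libraries 1, 2 and 4 lay below every other library and gel library 3 within the PBS range. Over PBS the log2 fold change was -0.36 ± 0.16 (edgeR adjusted p = 0.0954), and without gel library 3 it was -0.59 (adjusted p = 0.00046). Over uninjured it was -0.40 ± 0.16 (adjusted p = 0.0748), and -0.63 without gel library 3 (adjusted p = 0.000295).

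Tfe3 showed the reverse arrangement. It had 29, 30.1, 17.3 and 28 CPM in gel libraries, against 20.1, 17.8, 20.2 and 21.5 CPM in PBS libraries and 17.6, 16.9, 17.6 and 17.8 CPM in uninjured libraries. The log2 fold change was 0.39 ± 0.15 against PBS (edgeR adjusted p = 0.0587), or 0.53 without gel library 3 (adjusted p = 0.000916), and 0.58 ± 0.15 against uninjured (adjusted p = 0.0114). Mitf had 6.49, 10.3, 9.03 and 10.3 CPM in gel libraries, against 9.58, 10.1, 9.33 and 10.7 CPM in PBS libraries, and the groups overlapped (-0.13 ± 0.16, adjusted p = 0.561).

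**Figure D5:**
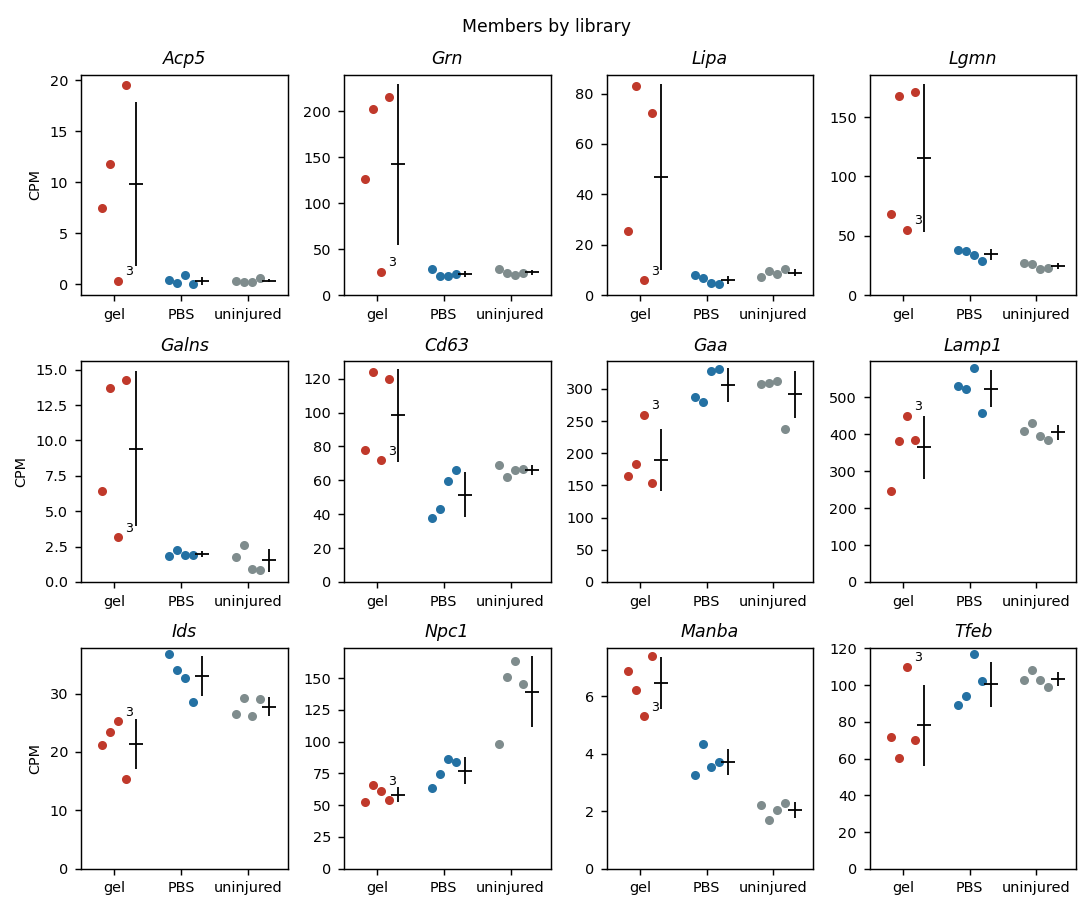
CPM of 12 of the 51 genes in each library, with gel left, PBS in the middle and uninjured right. Points are libraries, gel library 3 is numbered, and bars beside them give the mean and SD over 4 libraries; gel library 3 has 0.366 CPM of Acp5 and 25.2 CPM of Grn, within the other groups, but 5.31 CPM of Manba, above them.

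Gel against uninjured muscle shares the gel libraries with the comparison above, and its uninjured libraries come from other animals. Of the 51 genes 27 rose (52.9%) and 2 fell (3.92%), against 14.5% and 11.1% of all genes tested. The median log2 fold change was 0.52 over the 51 genes and 0.03 over all genes tested. The groups did not overlap for 15 genes that were higher in gel and 2 that were lower, against 11.3% and 11.7% of all genes. By role, 5 of 15 pump genes, 8 of 12 glycosidases and 2 of 4 sulfatases rose. So did 5 of 6 lipid hydrolases and luminal cofactors and 4 of 5 proteases, thioesterase and phosphatases. In edgeR, 20 genes were called higher in both gel comparisons and Gaa was called lower in both.

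Both accessory pump genes rose against uninjured muscle. Atp6ap2 had 6.25, 5.16, 4.73 and 5.07 CPM in uninjured libraries, below every gel library given above, and rose by 0.97 ± 0.21 (edgeR adjusted p = 0.00464). Atp6ap1, whose product helps assemble the V0 sector, had 90.6, 173, 176 and 144 CPM in gel libraries, against 94.8, 97.4, 105 and 97.1 CPM in uninjured libraries. It rose by 0.57 ± 0.17 (edgeR adjusted p = 0.0252), a call lost without gel library 2 or 4 or any one uninjured library (adjusted p of 0.0534 to 0.105). Atp6v1b2, the B2 subunit beside the catalytic one, had 33.6, 75, 46.2 and 64.4 CPM in gel libraries, against 31.8, 34.9, 36.5 and 35.8 CPM in uninjured libraries. It rose by 0.66 ± 0.18 (edgeR adjusted p = 0.0166), and the call was lost without gel library 2 or 4 or uninjured library 1 (adjusted p of 0.0513 to 0.0796).

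The clearest hydrolase rises against uninjured muscle were Manba by 1.65 ± 0.21 (edgeR adjusted p = 0.000162), Glb1 by 2.84 ± 0.47 (0.000902), Lgmn by 2.24 ± 0.33 (0.000906), Galns by 2.62 ± 0.45 (0.00138), Ppt1 by 0.90 ± 0.16 (0.0014) and Gla by 1.83 ± 0.34 (0.00163). All gel libraries lay above all uninjured libraries for each of these 6 genes. Acp5 rose by 4.71 ± 1.05 (0.00827), Grn by 2.53 ± 0.51 (0.00582), Npc2 by 1.15 ± 0.26 (0.00682) and Lipa by 2.41 ± 0.64 (0.0203). For Acp5, Grn and Lipa gel library 3 lay within or below the uninjured range, and limma voom did not call Acp5 (adjusted p = 0.174) or Lipa (adjusted p = 0.0784). Lipa was also lost without gel library 2 or 4 or uninjured library 1, 2 or 3 (adjusted p of 0.0508 to 0.064).

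Further calls against uninjured muscle had an adjusted p near the threshold and were lost when various libraries, in some cases PBS libraries outside the comparison, were left out of the fit. Atp6v0e (0.61 ± 0.21, edgeR adjusted p = 0.0434) was lost without any one library other than gel 1, gel 3 or PBS 2 (adjusted p of 0.0503 to 0.169). Cd63 (0.58 ± 0.20, adjusted p = 0.0428) was lost without gel library 2 or 4, PBS library 3 or any one uninjured library (0.0502 to 0.157). Lamp2 (0.50 ± 0.15, adjusted p = 0.0241) was lost without gel library 2 or 4 or any one uninjured library (0.0503 to 0.109). Psap (0.52 ± 0.18, adjusted p = 0.0468) was lost without any one library other than gel 1 or gel 3 (0.0601 to 0.187). Arsb (0.97 ± 0.30, adjusted p = 0.0278) was lost without gel library 1, 2 or 4 or uninjured library 1, 2 or 3 (0.0512 to 0.113). Its levels were 11, 9.27, 5.19 and 14.3 CPM in gel libraries, against 5.34, 3.24, 5.81 and 5.95 CPM in uninjured libraries. Asah1 (0.94 ± 0.29, adjusted p = 0.0318) was lost without gel library 2 or 4 or any one uninjured library (0.0609 to 0.111), and Naglu (1.18 ± 0.33, adjusted p = 0.0171) without gel library 4 or uninjured library 4 (0.0546 to 0.0586). Without gel library 4, 17 of the 51 genes rose in this comparison, and without gel library 3, 5 fell. In limma voom 18 rose, and Atp6v0e, Cd63, Psap, Arsb, Asah1, Naglu and Atp6ap1 were not called (adjusted p of 0.0509 to 0.0843). The 2-group edgeR fit without the block did not call Atp6v0e, Lamp2, Psap, Asah1 or Atp6ap1 (adjusted p of 0.0529 to 0.104).

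PBS against uninjured muscle addresses injection and injury without the gel, although the PBS leg shares its animal with a gel leg. Of the 51 genes 2 were called in edgeR, Manba higher and Npc1 lower, against 2.79% higher and 3.39% lower (6.17% in all) among all genes tested. In this fit of all 12 libraries each direction held 1 of the 51 genes (1.96%). That is near the share of all genes, and no difference is read from it. The fit of PBS and uninjured libraries alone tested 50 of the 51 genes, of which 7 rose and 1 fell. In it 1192 of all 12780 genes rose and 1147 fell. With all 12 libraries, the median log2 fold change of the 51 genes was 0.10. PBS libraries lay above all uninjured libraries for 7 genes and below for 1, against 10.4% and 10.2% of all genes.

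Npc1, the membrane transporter that exports cholesterol from the lysosome, was lower after both injections. It had 52.7, 65.6, 61.5 and 53.8 CPM in gel libraries, 63.4, 74.2, 86.7 and 83.9 CPM in PBS libraries and 98.5, 151, 163 and 145 CPM in uninjured libraries. All gel and PBS libraries, gel library 3 included, lay below all uninjured libraries, of which the first was the lowest. The log2 fold change was -0.86 ± 0.16 for PBS over uninjured (edgeR adjusted p = 0.0048), -1.26 ± 0.16 for gel over uninjured (adjusted p = 0.000127) and -0.40 ± 0.15 for gel over PBS (adjusted p = 0.0624). The difference between gel and PBS passed without gel library 3, PBS library 1 or uninjured library 1 (adjusted p of 0.0304 to 0.0402). Npc2, which hands cholesterol to this transporter, was not called between PBS and uninjured muscle (0.12 ± 0.26, adjusted p = 0.844).

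Manba, the beta-mannosidase, separated all 3 groups. It had 6.89, 6.24, 5.31 and 7.39 CPM in gel libraries, 3.26, 4.35, 3.55 and 3.72 CPM in PBS libraries and 2.22, 1.68, 2.03 and 2.28 CPM in uninjured libraries. No library of one group reached into another. The log2 fold change was 0.80 ± 0.20 for gel over PBS (edgeR adjusted p = 0.00976) and 0.86 ± 0.21 for PBS over uninjured (adjusted p = 0.0264). The call for PBS over uninjured was lost without PBS library 2 or any one uninjured library (adjusted p of 0.0502 to 0.0907) and in limma voom (0.0541).

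Lamp1, Scarb2, Atp6ap1, Atp6v1b2, Psap and Lgmn were the other genes with every PBS library above every uninjured library. Their log2 fold changes were 0.33 to 0.49, with edgeR adjusted p of 0.143 to 0.418 in the fit of all 12 libraries. In the fit of PBS and uninjured libraries alone, without the block, each of these genes was called higher (edgeR adjusted p of 0.00435 to 0.0171). Scarb2, the sorting receptor of glucocerebrosidase, had 81, 67.8, 78.7 and 68.1 CPM in PBS libraries, against 58.9, 50.1, 61 and 45.7 CPM in uninjured libraries (0.45 ± 0.18, adjusted p = 0.143). Scarb2 and Atp6ap1 also passed when gel library 1 was left out of the shared fit (adjusted p of 0.0284 and 0.0387).

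Genes of the pathway outside the 51 were counted from 3 further lists. Of 33 other lysosomal genes 30 could be tested, and 17 rose (56.7%) and 3 fell (10%) in gel against PBS muscle. Of all genes tested, 16.6% rose and 13.2% fell there. Cd68, the macrophage lysosomal glycoprotein, had 208, 404, 16.4 and 406 CPM in gel libraries, against 6.61, 6.74, 2.46 and 9 CPM in PBS libraries, with no overlap (5.38 ± 0.87, edgeR adjusted p = 0.00282). Laptm5, a lysosomal membrane protein of blood cells, had 33.3, 70.2, 6.23 and 81.7 CPM in gel libraries, against 6.81, 3.26, 2.06 and 5.22 CPM in PBS libraries (3.46 ± 0.69, adjusted p = 0.00545). Gel library 3 exceeded the PBS range for Cd68 but not for Laptm5.

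Among 9 genes of mannose 6-phosphate sorting, which routes new hydrolases to the lysosome, 0 rose and 1 fell (11.1%) in gel against PBS muscle. This was near the 13.2% of all genes tested that fell. The gene that fell was Gga1, an adaptor of the trans-Golgi network, with 76.3, 60.9, 83 and 57.3 CPM in gel libraries, against 83.9, 97.4, 105 and 100 CPM in PBS libraries (-0.48 ± 0.13, edgeR adjusted p = 0.0145). In gel against uninjured muscle 3 of the 9 rose (33.3%, against 14.5% of all genes tested) and 0 fell. Igf2r, the large mannose 6-phosphate receptor, had 52.3, 54.7, 48.4 and 43.3 CPM in PBS libraries, against 36.7, 31.1, 35.2 and 26.7 CPM in uninjured libraries, with no overlap (0.62 ± 0.15, adjusted p = 0.0264). Gga1 and Igf2r were chosen after their values were seen.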

How the data were processed

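RNA of 12 tibialis anterior libraries was measured. Raw counts of reads per gene symbol were deposited by the authors, 1 file per library, with 0 value columns left unmatched. The submitters' processing notes name STAR, mm39 and edgeR, with no version. How reads were counted, with which strand setting and treatment of multiple matches, is not given in the sources used here. Between 74.2% and 85.4% of counts from 1 to 19 were even, so a count is not an independent fragment and no counting intervals are given. In GENCODE vM21, 12 of the 51 genes share exon bases with another counted gene (Acp2, Arsa, Atp6v0b, Atp6v1e1, Atp6v1h, Glb1, Grn, Hexa, Idua, Lamp1, Npc1 and Ppt1), and their counts are uncertain to that extent.

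The analysis used R 4.3.3 and edgeR 4.0.16: filterByExpr, TMM scaling, and a robust quasi-likelihood fit over all 12 libraries with 1 coefficient per group and 9 residual degrees of freedom. P-values were adjusted by Benjamini-Hochberg over 13499 genes, with a threshold of 0.05, beyond which a gene is said to rise or fall. The SE is the log2 fold change over the square root of F. CPM used TMM-scaled totals; levels per kb used the longest protein-coding transcript in GENCODE vM21. The script was tested on simulated data. Alternatives were limma 3.58.1 voom, DESeq2 1.42.0, other scalings, no filter, fits of 2 groups, an animal block, libraries left out, and, added after the data were seen, halved counts and a blocked fit without animal 3.

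Gel and PBS libraries that share a number are legs of 1 animal, from the labels' protocol and the deposited names. Their deviations from the group means correlated at 0.14, -0.06, 0.31 and 0.08 across genes. P-values measure the spread between the 4 libraries of a group, which the main fit pools over all 12 libraries. The spread among gel libraries thus also enters the p-values of PBS against uninjured muscle.

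The members and lists were chosen with earlier results of these data known. Values by library, or for some groups their range, are given for the groups compared. They cover the 3 genes of each role with the smallest p among those called in a comparison. Lamp1, Gaa, Atp6v1a, Acp5, Tfeb, Tfe3 and Mitf are included whatever their p. The pump isoform pairs and the 4 largest changes of the other lysosomal lists are included as well. Further genes given by library were chosen after their values were seen. Promoter stretches follow the longest match found.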

Additional observations from a re-analysis of the deposited data

Results flagged for a closer look

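In 183 sets of 4 libraries (153 gene levels and 30 role levels), 6 single libraries stood apart from the other 3 of their group by Dixon's criterion (3.28%), where chance alone gives about 1 in 20. Atp6v1e1, a stalk subunit of the pump, was at 48.2 CPM in gel library 1, against 71.2 to 73.4 CPM in the other gel libraries. Tfe3 was at 17.3 CPM in gel library 3, against 28 to 30.1 CPM in the others. Gaa was at 237 CPM in uninjured library 4, against 307 to 313 CPM in the others. Naglu was at 4.31 CPM in uninjured library 4, against 6.03 to 6.15 CPM. The mean V0 level was -0.06 on the log2 scale in uninjured library 4, against 0.01 to 0.02 in the others. The accessory pump level was 0.09 in uninjured library 1, against -0.04 to -0.02 in the others.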

How the results depend on the processing

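None of the calls among the 51 genes changed its direction under an alternative. The median over all genes in gel over PBS, 0.04, was -0.02 in the blocked fit without animal 3, and in gel over uninjured, 0.03, it was -0.02 with the block. In gel against PBS muscle, 13 of the 27 called genes kept their call under all 22 alternatives: Atp6v1a, Cd63, Gaa, Gla, Glb1, Hexa, Naglu, Man2b1, Manba, Ids, Galns, Ppt1 and Lgmn. In gel against uninjured muscle 15 of 29 did so under 21 alternatives, and in PBS against uninjured muscle 1 of 2, Npc1. In gel over PBS, 23 genes rose with all libraries in the fit, 16 with the 2 groups alone and 12 with the 2 groups and the replicate number as a block, the pairing there being of legs. In the comparisons with uninjured muscle the numbers name different animals and pair nothing. Gel over uninjured gave 27 rises with all libraries, 22 with the 2 groups alone and 16 with the block added. PBS over uninjured gave 1 rise and 1 fall with all libraries, 7 and 1 with the 2 groups alone, 7 and 2 with the block added, and 0 rises in limma voom. Leaving out animal 3 gave 5 falls against 2 in gel over uninjured. With single libraries left out, gel over PBS gave 16 to 29 rises and 3 to 7 falls, gel over uninjured 17 to 30 and 2 to 5, and PBS over uninjured 0 to 3 and 1. Over all genes, gel over PBS gave 1513 rises and 1046 falls in the fit of the 2 groups, against 2236 and 1786 with all libraries. PBS over uninjured gave 376 rises and 457 falls with all libraries, but 666 and 751 in DESeq2, 1192 and 1147 in the fit of the 2 groups, and 1256 and 1283 with the block added. Without the low-count filter the median log2 fold change of all genes in gel over PBS was 0.17, against 0.04 with it. Depth limits most the genes near 0, such as Acp5 and Atp6v0d2 outside gel libraries 1, 2 and 4. The smaller fits also held fewer libraries, and the cause of these shifts was not tested.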
